A study of Jaltomata procumbens and Jaltomata herrerae with 23 samples.

Results

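The loci described here are the plastid-encoded genes of Jaltomata herrerae and Jaltomata procumbens, nightshade relatives, measured by RNA sequencing in floral nectaries, the organs that secrete nectar, and in leaves. Members were all rows whose Arabidopsis locus identifier starts with ATCG, the prefix of the plastid genome, which gave 67 loci of the 13170 in the table. The rule itself uses no expression value, but it was set with earlier results of these data known. The table lists Jaltomata expression under Arabidopsis loci with no gene names, so the symbols used here are the standard Arabidopsis names of those loci.

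Per the labels, the nectary libraries came from greenhouse plants at a pre-secretory stage (24 to 48 h before anthesis), a secretory stage (full anthesis, 3 to 6 h after dawn) and a post-secretory stage (after petal abscission). J. herrerae had 3 libraries at each stage and 2 of fully expanded leaf. J. procumbens had 3 pre-secretory, 2 secretory and 2 post-secretory libraries and 2 of leaf after 3 of its libraries were left out. No treatment, mutant or transgene was involved, and nothing in the labels tells whether each replicate is a different plant. The p-values therefore reflect the variation among these libraries alone, part of which may be technical.

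Plastid genomes encode core subunits of the photosynthetic complexes, the large subunit of Rubisco, part of the plastid ribosome and the bacterial-type plastid RNA polymerase, while most other plastid proteins come from nuclear genes. In green tissue that plastid-encoded polymerase transcribes mainly photosynthesis genes, and a nuclear-encoded phage-type polymerase (NEP) serves a smaller set that includes accD, rpoB, rpoC1, rpoC2, ycf1 and ycf2. Most plastid transcripts carry no poly(A) tail, and a tail added to plastid RNA marks it for decay. The libraries were made with an mRNA kit per the labels, so each value below is the plastid RNA that passed this selection, and a change in transcript level cannot be told apart from a change in tailing. In these bulk samples fewer plastid-rich cells and less plastid RNA per cell likewise cannot be told apart.

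Values are given as scaled TPM, the deposited TPM (transcript abundance corrected for length and library total) after each library was rescaled by the median ratio over 9613 loci. Changes are log2 differences of scaled TPM + 1, tested in limma over 13075 loci, and a locus was called at a Benjamini-Hochberg adjusted p under 0.05. All 67 plastid loci passed the filter of at least 1 TPM in at least 2 libraries. Listed totals were 542947 to 779099 TPM per library, and TPM keeps no read depth, so the counting error of low values is unknown.

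The 3 libraries left out went against their labels in marker genes. The library labelled pre-secretory nectary A of J. procumbens had a summed level of 74177 for 4 leaf mesophyll markers and of 245 for 3 nectary markers (CRC, SWEET9 and CWINV4, the last at 0), against 49.3 to 118 and 2424 to 22904 in the other pre-secretory libraries. Its plastid profile over the 67 loci correlated at 0.881 with J. herrerae leaf and at 0.612 with its own group. The library labelled J. procumbens leaf A had 436 for the leaf markers and 6125 for the nectary markers, against 42218 to 52539 and 26.6 to 101 in the other leaf libraries. The library labelled post-secretory nectary A had 43962 for the nectary markers, against 659 to 2725 in the others, and its plastid profile correlated at 0.975 with the secretory group and at 0.883 with its own. Counts of calls with all 23 libraries are given beside each comparison. Among the 20 libraries, the same 3 nectary markers summed to 355 and 796 in J. herrerae leaf, and the leaf markers ran between 171 and 5970 in J. herrerae pre-secretory nectaries.

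Plastid loci made up a small share of the signal, and a few of them held most of it. The mean scaled TPM over 20 libraries reached 100 in 4 loci (ndhB.2, ycf2.2, ndhH and rps7.2), 10 in 30 loci, and lay between 1 and 10 in the other 37. Their median was 8.46, against 12.7 for all loci tested. The photosynthesis loci psbA and rbcL, known for very abundant RNA in leaves, averaged 68.5 and 52.3. By mean level ndhB.2 ranked 18 in the table, ycf2.2 86, ndhH 317, rps7.2 730, petA 1290 and psbA 1340. No plastid rRNA locus was among the rows. Several loci lie at least in part in the inverted repeat, which is duplicated in the plastid genome. Among these, ndhB.2, rps7.2, rpl2.2, rpl23.2, ycf1.2, ycf2.2 and ycf15.2 were each held in 1 copy by the rows analysed. How reads were divided between copies is not given in the sources used here.

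The plastid share of listed TPM was highest in J. herrerae nectaries before and during secretion. It was 0.484%, 1.37% and 1.00% in the pre-secretory libraries, 1.56%, 1.29% and 0.97% in the secretory ones, 0.392%, 0.335% and 0.343% in the post-secretory ones and 0.488% and 0.53% in leaf. In J. procumbens the nectary libraries held 0.204% to 0.239% and the leaf libraries 0.25% and 0.233%. The J. herrerae share averaged 0.86% ± 0.483 in nectary (SD, n = 9) and 0.509% in leaf, a difference of 0.351 percentage points that did not pass an exact two-sided permutation test (p = 0.545). A single locus, ndhB.2, made the difference positive. It held 55.9% to 78.8% of the plastid signal in pre-secretory and secretory libraries and 5.31% to 11% in post-secretory ones. Without it the share averaged 0.316% in nectary (0.214% to 0.388%) and 0.483% in leaf (0.465% and 0.501%), a difference of -0.166 points. The locus was excluded for its high mean in these same libraries, which lowers the nectary share more. No p-value is therefore given for that difference. In J. procumbens the share was 0.217% ± 0.0131 in nectary (SD, n = 7) and 0.242% in leaf (exact permutation p = 0.111, where the smallest possible is 0.0556, so the design cannot reach 0.05).

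**Figure D1:**
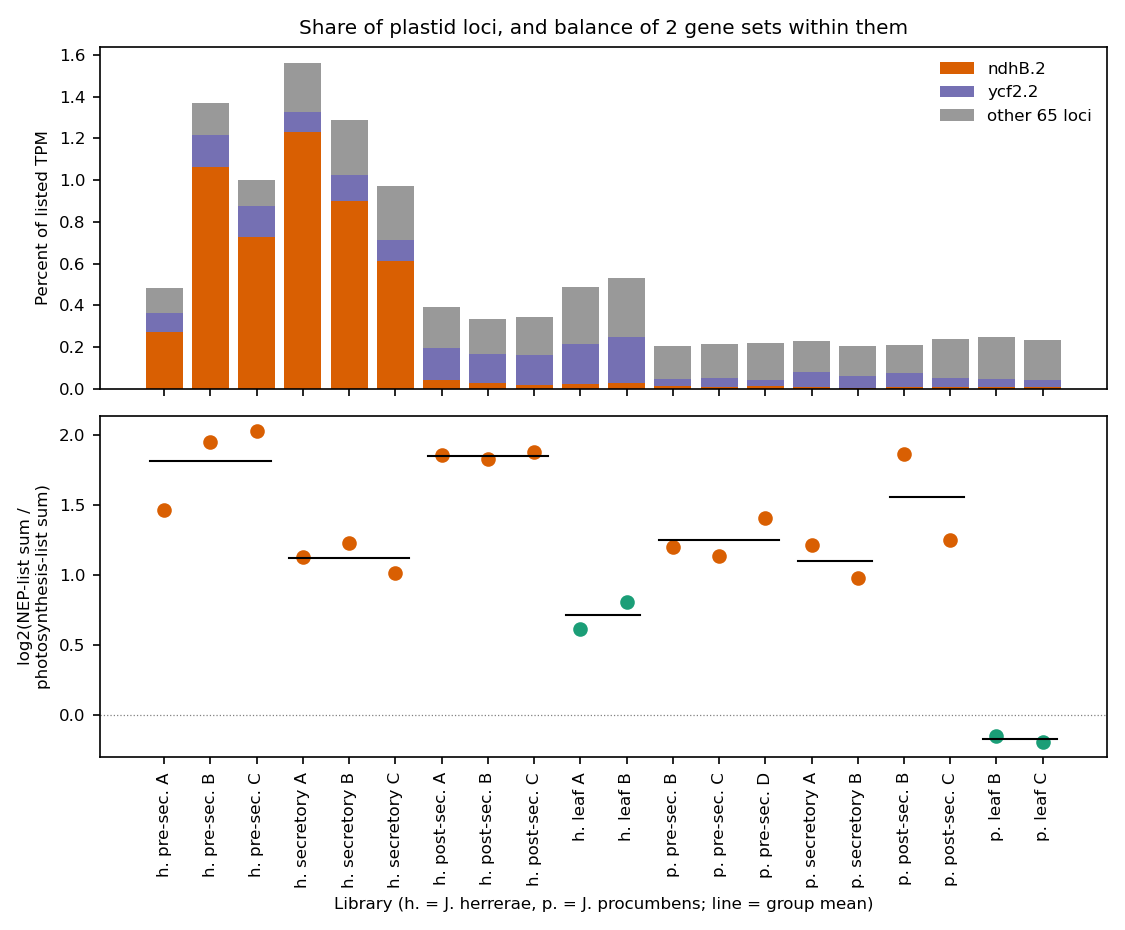
Top, plastid loci as a percent of listed TPM in each of 20 libraries, split into ndhB.2 (orange), ycf2.2 (purple) and the other 65 loci (grey). Bottom, log2 ratio of the summed NEP list to the summed photosynthesis list in each library, with nectary in orange, leaf in green and lines at group means; leaf libraries sit between -0.187 and 0.805 and nectary libraries between 0.98 and 2.03.

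The balance between the groups of loci differed more clearly between nectary and leaf than the total did. The ratio of 6 NEP-served loci (accD, rpoB, rpoC1, rpoC2, ycf1.2 and ycf2.2) to 18 photosynthesis loci (every psa, psb and pet locus and rbcL) compares loci within a library, so it does not depend on scaling. Its log2 averaged 1.60 ± 0.389 in J. herrerae nectaries (SD, n = 9) and 0.71 in leaf, where the libraries had 0.615 and 0.805. No nectary library was as low as a leaf library, and the difference of 0.891 had an exact permutation p of 0.0364, the smallest this design allows. In J. procumbens it averaged 1.3 ± 0.285 in nectaries (SD, n = 7) and -0.171 in leaf, a difference of 1.47 without overlap (exact permutation p = 0.0556, the smallest possible). The ratio was 1.47, 1.95 and 2.03 in J. herrerae pre-secretory nectaries, 1.13, 1.23 and 1.02 in secretory ones and 1.86, 1.83 and 1.88 in post-secretory ones, so secretory nectaries lay closest to leaf. In the sums ycf2.2 weighed most, since it alone held 6.32% to 41.9% of the plastid signal in J. herrerae nectaries. Both lists of loci were chosen with earlier results of these data known.

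**Figure D2:**
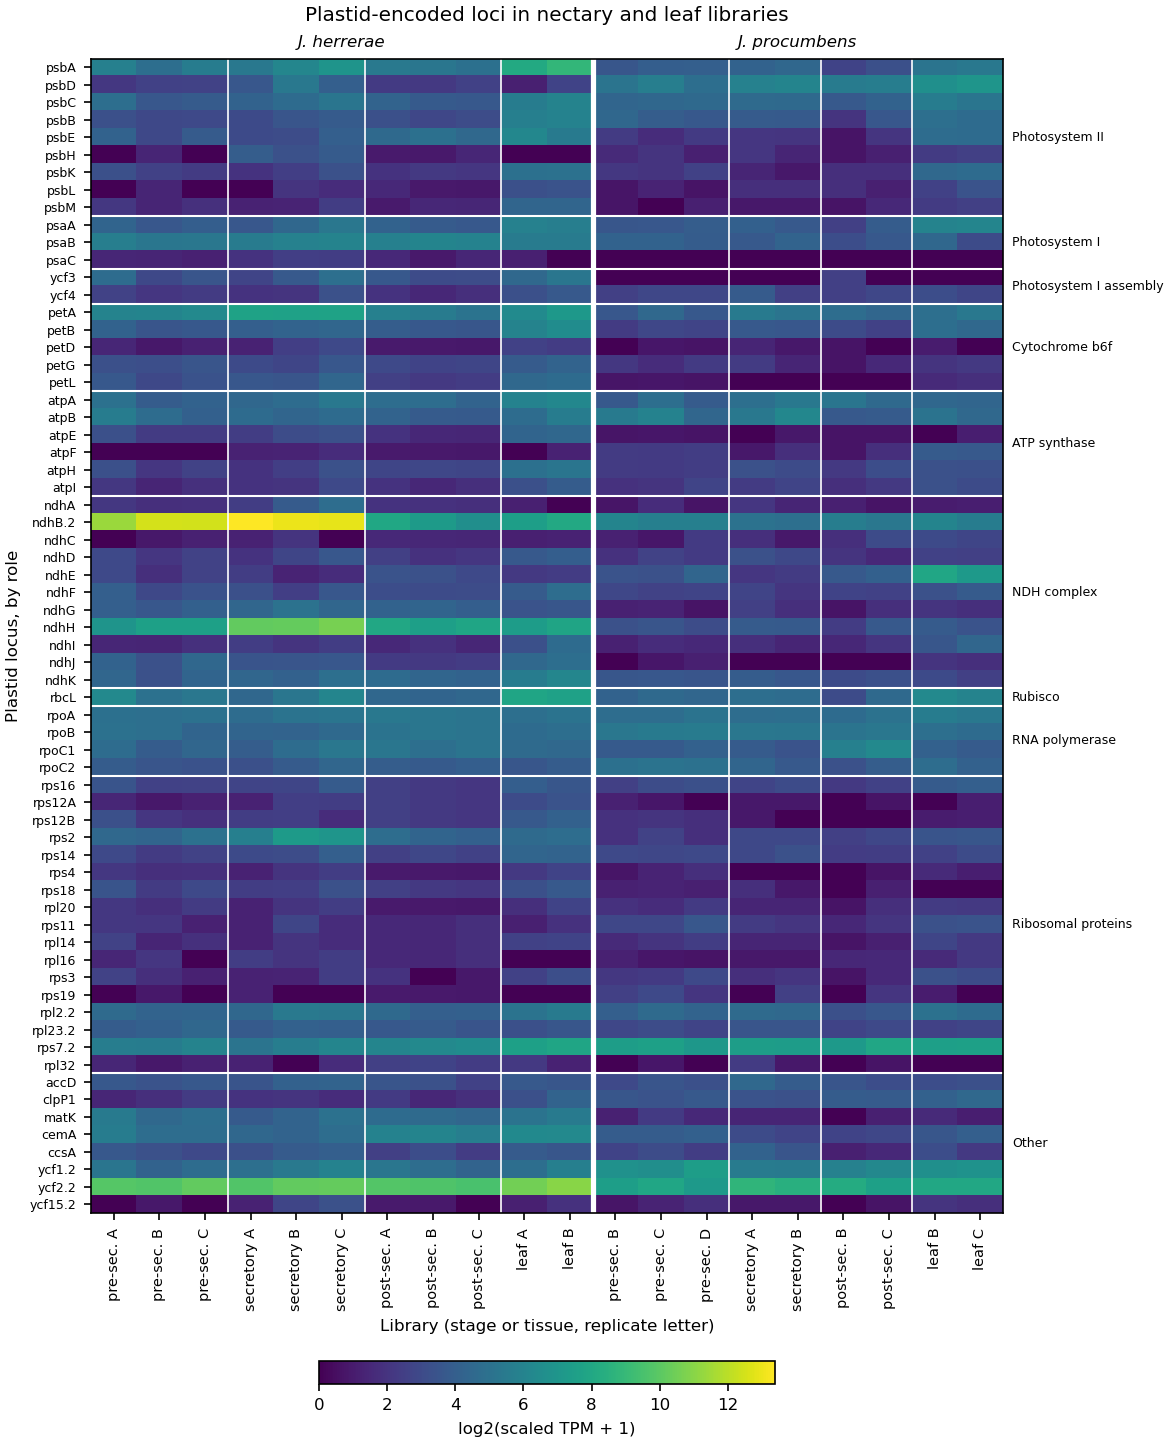
Level of 66 of the 67 plastid loci, as log2(scaled TPM + 1), in 20 libraries, with loci in rows by role and libraries in columns by species, stage or tissue and replicate letter. The rows of ndhB.2 and ycf2.2 are the brightest, and that of ndhH is bright in J. herrerae only. In J. herrerae ndhB.2 ranges from 96.2 to 10672 scaled TPM across nectary libraries.

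In nectaries against leaves of J. herrerae, most photosynthesis loci were lower, and the few that were higher included 4 loci of the NDH complex. The test called 45 of 67 plastid loci (67.2%), of which 36 were lower and 9 higher, against 46.2% of all loci (18.9% higher, 27.3% lower). The median log2 change was -0.89 for plastid loci and 0.00 for all loci. With all 23 libraries the count was 27 (4 higher, 23 lower), and without leaf B it was 30. Leaving out each library in turn kept 26 of the 45 calls; among the losses were psbD and ndhH without leaf A, and psaC, ndhA, ndhD, ndhF and ycf2.2 without leaf B.

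Photosystem II, the complex that splits water, had 7 of its 9 loci lower and 2 higher. The locus psbA (ATCG00020), which encodes the reaction-centre protein D1, had between 27.8 and 121 scaled TPM in the 9 nectary libraries, with a median of 40.9, against 274 and 457 in leaf. Every nectary library was below both leaf libraries, and the log2 change was -2.88 (SE 0.32, adjusted p = 3.26e-06). The locus psbB, which encodes the antenna protein CP47, had 6.31 to 13.4 (median 7.53) in nectary, against 54.5 and 61 in leaf (log2 change -2.68, adjusted p = 3.51e-06). The small subunit loci psbM, psbK and psbL fell by 2.77, 2.49 and 2.41, psbE, a cytochrome b559 subunit, by 1.93, and psbC, the antenna protein CP43, by 1.57.

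The exceptions within photosystem II were psbD, which encodes the other reaction-centre protein D2, and psbH, a small subunit. psbD had 3.43 to 39.3 (median 5.02) in nectary, against 1.24 and 5.54 in leaf, so the groups overlapped, and its log2 change was 1.12 (SE 0.38, adjusted p = 0.0254). Without leaf A its adjusted p in limma was 0.598. psbH was listed at 0 in both leaf libraries and reached 14.3 in nectary, but it was also at 0 in 2 nectary libraries.

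Rubisco's large subunit locus rbcL (ATCG00490) had 18.9 to 77.2 (median 31.1) in nectary, against 230 and 200 in leaf. No nectary library reached the leaf level, and the log2 change was -2.67 (SE 0.38, adjusted p = 3.32e-05). In photosystem I, which passes electrons to ferredoxin, the reaction-centre locus psaA fell (17.6 in nectary and 54.8 in leaf on average, log2 change -1.68), its partner psaB had a change of 0.13 with 37.6 to 64 in nectary and 47.1 in both leaf libraries, and the low locus psaC, an iron-sulfur subunit, was higher (2.34 against 0.619). The cytochrome b6f complex, which links the photosystems, had 4 of 5 loci lower, led by petB, the cytochrome b6 gene (10.6 to 20.1 in nectary, against 61.9 and 90.1 in leaf, log2 change -2.31, SE 0.20). Of the ATP synthase 4 of 6 loci were lower, with atpH at -2.39, atpE at -1.97, atpI at -1.63 and atpA at -1.47.

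The NDH complex, which cycles electrons around photosystem I, was split, with 5 of 11 loci lower and 4 higher. The locus ndhB.2 (ATCG01250) had 2601, 5891 and 5738 scaled TPM in pre-secretory, 10672, 8185 and 7444 in secretory and 250, 154 and 96.2 in post-secretory nectaries, against 183 and 273 in leaf. Pre-secretory and secretory nectaries were all far above leaf and post-secretory nectaries overlapped it. The pooled log2 change was 3.02 (SE 0.32, adjusted p = 1.92e-06). ndhA rose by 1.93, ndhH by 0.91 and ndhG by 0.72, while ndhI fell by 2.16, ndhK by 1.57, ndhJ by 1.42, ndhD by 1.36 and ndhF by 1.11. For ndhH only the secretory libraries (1131, 1186 and 1606) stood above leaf (165 and 224) as a group. Its pre-secretory libraries (122, 191 and 195) and post-secretory libraries (258, 187 and 231) overlapped leaf. The neighbour of ndhB in the plastid genome, rps7.2, moved the other way from it, with 34.4 to 90.4 (median 61.4) in nectary, against 196 and 234 in leaf (log2 change -1.86, SE 0.22).

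The plastid RNA polymerase had no locus called by limma in J. herrerae, and none at an unadjusted p under 0.05. rpoA averaged 32.7 in nectary and 30.9 in leaf, rpoB 26.9 and 26.2, rpoC1 26.5 and 22.8, and rpoC2 13.1 and 12.5 in the same order, with log2 changes between -0.01 and 0.13 and SEs between 0.14 and 0.27. Ribosomal protein loci had 10 of 18 lower and 2 higher (rpl16 and rpl23.2). rpl16 was listed at 0 in both leaf libraries and had 0 to 4.47 in nectary. Among the other loci, clpP1, a protease subunit, fell by 1.89, cemA, an envelope membrane protein, by 1.16 and ycf2.2, which encodes an ATPase of the protein import machinery, by 0.90, with 752 to 1212 in nectary, against 1480 and 2085 in leaf. Changes of accD (fatty acid synthesis), matK (a splicing maturase), ccsA (cytochrome c assembly), ycf1.2 (protein import) and ycf15.2 did not pass the test.

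**Figure D3:**
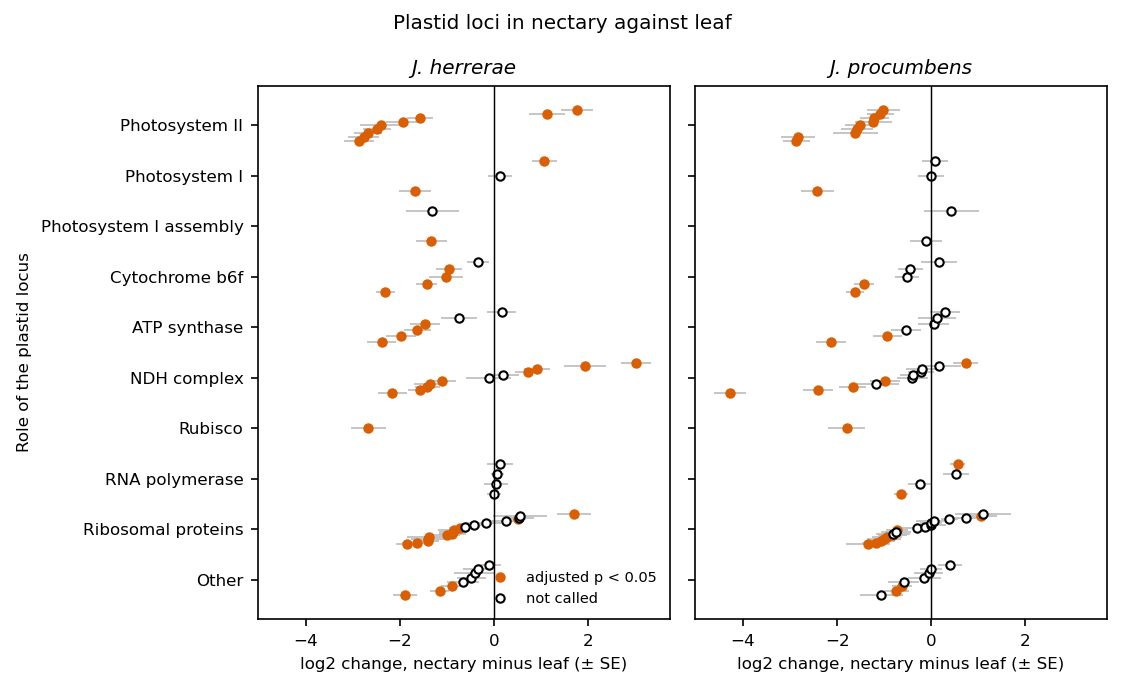
Log2 change in nectary minus leaf (x axis, with SE bars) of each plastid locus by role, in J. herrerae (left) and J. procumbens (right); filled points passed an adjusted p under 0.05. Photosystem II and Rubisco lie mostly to the left of 0 in both species, and the NDH complex spreads from -4.28 to 3.02. RNA polymerase lies near 0 in J. herrerae, while in J. procumbens 1 of its loci passed as higher and 1 as lower.

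In J. procumbens nectaries the photosystem II loci and rbcL were lower than in leaf, while fewer than 1 in 2 loci were called lower in each of the other roles. The test called 32 of 67 plastid loci (47.8%), 29 lower and 3 higher, against 52.7% of all loci, so the total share is near the background while the split is not (24.4% of all loci were higher and 28.4% lower). The median log2 change was -0.58, against 0.00 for all loci. Deposited values without rescaling, under which the median of all loci was 0.52, gave 21 calls with 8 higher and 13 lower. With all 23 libraries, where the library labelled leaf A counts as leaf, 6 were called and all were lower. Without leaf B the count was 19 and without leaf C 17, and 12 of the 32 calls held without each library in turn, among them psbA, psbE, psbK, psbM, psaA, rbcL, petB, ndhE and ndhI.

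All 9 photosystem II loci were lower in J. procumbens nectaries. psbA had 5.49 to 21.1 (median 15) in the 7 nectary libraries, against 34.2 and 40 in leaf, without overlap (log2 change -1.51, SE 0.33, adjusted p = 0.00142). psbD had 27.5 to 64.2 (median 49.1), against 101 and 125 in leaf, and fell by 1.23, so that the D2 locus stood above the D1 locus in every library of this species that was used. psbK and psbE fell by 2.87 and 2.83, psbM by 1.57, psbB by 1.21 and psbC by 1.08. Of these, psbB, psbC, psbD and psbH did not pass with deposited values, at changes between -0.61 and -0.45.

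rbcL had 7.32 to 27.8 (median 22.4) in nectary, against 76.4 and 61.9 in leaf (log2 change -1.80, SE 0.39, adjusted p = 0.00124). psaA fell (12 in nectary and 64.5 in leaf on average, log2 change -2.42), while psaB differed by 0.08. In the cytochrome b6f complex petB fell by 1.62 and petL by 1.43. In the ATP synthase atpF fell by 2.13 and atpI by 0.93.

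The locus furthest below leaf was ndhE (ATCG01070), an NDH subunit, with 3.27 to 19.4 (median 9.58) in nectary, against 239 and 147 in leaf. Every nectary library was below the lower leaf value by a wide margin, at a log2 change of -4.28 (SE 0.34, adjusted p = 7.36e-08). In J. herrerae the same locus had 1.51 to 9.75 in nectary, against 3.71 and 4.16 in leaf. ndhI fell by 2.40, ndhJ by 1.67 and ndhF by 0.99, and ndhK was higher, with 7.32 to 13.9 in nectary, against 7.03 and 4.85 in leaf (log2 change 0.73, SE 0.26, adjusted p = 0.0296). In the RNA polymerase rpoB was higher (34.8 to 45.6 in nectary, against 28.1 and 24.3 in leaf, log2 change 0.56, SE 0.16) and rpoA lower (28.2 and 44.1 on average, log2 change -0.64). The rpoA fall went to a change of 0.00 with deposited values. Of 18 ribosomal protein loci 7 were lower and 1 higher, namely rps18, listed at 0 in both leaf libraries and reaching 2.45 in nectary.

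Called lower in nectary in both species were 22 loci, which is 22 of 36 such calls in J. herrerae and 22 of 29 in J. procumbens. They are 32.8% of plastid loci, against 17.9% of all loci. No plastid locus was called higher in both, against 9.54% of all loci. The calls of 4 loci had opposite directions in the species. psbD and psbH were higher in J. herrerae nectary and lower in J. procumbens nectary, and ndhK and rps18 the reverse. The test of the difference between the species' changes, J. herrerae minus J. procumbens, called 21 plastid loci, 10 higher and 11 lower, against 25.6% of all loci (12.2% higher, 13.4% lower). The strongest were ndhE at 4.49 (SE 0.47), ndhB.2 at 3.42 (SE 0.46), psbH at 2.78 and rpl16 at 2.5 on the higher side, and ndhK at -2.30, atpE at -2.02, rps18 at -1.91 and atpH at -1.85 on the lower side. psbD differed by 2.35 and psbA by -1.36. Deposited values gave 27 calls, 6 higher and 21 lower, at a median of all loci of -0.50, and all 23 libraries gave 6. Without J. herrerae leaf B the count was 12, and without J. procumbens leaf B it was 11.

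Most nuclear genes chosen for plastid functions were called lower in nectary. Of 25 nuclear photosynthesis genes chosen, 21 were in the table, and 21 were lower in J. herrerae nectary and 20 in J. procumbens nectary, with median log2 changes of -5.31 and -5.64. With all 23 libraries 19 and 2 were called, at medians of -5.31 and -3.78. Of 19 nuclear genes for plastid transcription (sigma factors, which guide the plastid polymerase to promoters, phage-type polymerases and polymerase-associated proteins), 15 were lower and 1 higher in J. herrerae nectary and 17 were lower in J. procumbens nectary, with medians of -1.07 and -2.48 (7 and 14 lower with all 23 libraries). The sigma factor SIG2 averaged 12.8 in nectary and 58.3 in leaf of J. herrerae, and 5.45 and 84.4 in J. procumbens. All 5 genes for plastid RNA processing and decay were lower in nectary in both species (2 in each with all 23 libraries), among them the RNA-binding protein CSP41B at 10.8 in nectary and 558 in leaf of J. herrerae and 2.68 and 590 in J. procumbens. Of 44 mitochondrion-encoded loci, 14 were higher and 2 lower in J. herrerae nectary, against 46.2% of all loci called (18.9% higher, 27.3% lower). In J. procumbens nectary 17 were higher and 3 lower, against 52.7% (24.4% higher, 28.4% lower). Most of these loci did not pass in either species, and most that did were higher. Using all 23 libraries, 2 were higher and 1 lower in J. herrerae nectary and 2 and 2 in J. procumbens nectary. All 4 leaf mesophyll markers were called lower in nectary in both species, summing to 171 to 7875 in J. herrerae nectary and 91951 to 148315 in leaf, and to 49.3 to 996 in J. procumbens nectary and 42218 to 52539 in leaf. The vascular marker SUC2 had 4.3 to 16.6 in J. herrerae nectary and 79.2 and 150 in leaf, and 0.817 to 14 in J. procumbens nectary and 14.1 and 42.5 in leaf. The 2 petal markers summed to 25.2 to 148 in J. herrerae nectary and 5.54 and 8.67 in leaf, and to 34.1 to 97.9 and 5.02 and 9.7 in J. procumbens. The 2 carpel and ovule markers summed to 84.1 to 117 in J. herrerae nectary and 18 and 22.3 in leaf, and to 5.72 to 23.8 and 6.03 and 10.9 in J. procumbens, where they overlapped. Most of the J. herrerae nectary sum was the marker STK (80.9 to 116). The other, ANT, had 0 to 1.72 before and during secretion and 6.82 to 18 after it, against 9.91 and 6.93 in leaf. The part of these markers in the changes of plastid loci was not tested.

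Of 9 transcription units that are shared in Arabidopsis, chosen after the values had been seen, some had members with opposite changes and some had members with close values. In the psbB, psbH, petB and petD unit, J. herrerae nectary changes ran from -2.68 for psbB to 1.76 for psbH, and in J. procumbens from -1.62 for petB to 0.16 for petD. In the unit from ndhH to ndhD they ran from -2.16 for ndhI to 1.93 for ndhA in J. herrerae, and from -4.28 for ndhE to 0.17 for ndhA in J. procumbens. psbD and psbC, which overlap in Arabidopsis, differed by 2.69 in J. herrerae and by 0.15 in J. procumbens. The rpoB, rpoC1 and rpoC2 unit spanned 0.14 in J. herrerae and 0.80 in J. procumbens, psbE and psbL, lower in both species, differed by 0.48 and 1.22, and atpB and atpE by 1.23 and 0.08. The psaA, psaB and rps14 unit, the atpI to atpA unit and the ndhC, ndhK and ndhJ unit spanned 1.46 to 2.55. Reads of overlapping loci may have been divided between them, and how is not given in the sources used here.

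In secretory against pre-secretory nectaries of J. herrerae, all 14 plastid loci called were higher. The 14 of 67 (20.9%) compare with 33.5% of all loci, of which 15.4% were higher and 18.1% lower, so fewer plastid loci than loci in general were called. At an unadjusted p under 0.05 there were 20. The median log2 change was 0.30, against -0.04 for all loci. Deposited values, under which the median of all loci was -0.39, gave 11 calls with 8 higher and 3 lower. All 23 libraries gave 6 calls, all higher, and without secretory C the count was 9. Of the 14, 7 held without each library in turn: psbD, psbH, petA, atpF, ndhH, rps2 and ycf15.2. For atpF the step was from 0 to 1 deposited TPM.

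The largest rises were in psbH and ndhH. psbH had 14.3, 9.07 and 13.4 in secretory libraries, against 0, 1.64 and 0 in pre-secretory ones, without overlap (log2 change 3.24, SE 0.35, adjusted p = 1.38e-05). ndhH (ATCG01110) had 1131, 1186 and 1606 in secretory libraries, against 122, 191 and 195 in pre-secretory ones. Every secretory library was well above every pre-secretory one, at a log2 change of 2.96 (SE 0.29, adjusted p = 5.74e-06).

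petA (ATCG00540), the cytochrome f gene, had 207, 199 and 212 in secretory nectaries, against 61.8, 65.4 and 77.4 in pre-secretory ones, and rose by 1.59 (SE 0.25, adjusted p = 0.000315). rps2, a small-subunit ribosomal protein, had 53.1, 156 and 125, against 22.3, 19.6 and 30.7, and rose by 2.04. psbD had 11.5, 39.3 and 15.7, against 3.43, 4.91 and 5.34, and rose by 1.89. None of these groups overlapped. ndhA (14.9 and 2.85 on average) rose by 1.75, ycf15.2 (5.48 and 0.273) by 2.18, and ndhB.2 by 0.96, a rise that deposited values put at 0.50 and did not call. atpF, an ATP synthase stator subunit, was listed at 0 in all 3 pre-secretory libraries and at 1 deposited TPM in each secretory one. Rescaling alone made the latter 1.43, 1.51 and 2.24, so its call rests on a step of 1 rounded unit.

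By role, 3 of 11 NDH loci rose, 2 of 9 photosystem II, 2 of 5 cytochrome b6f, 4 of 18 ribosomal protein, 1 of 3 photosystem I, 1 of 6 ATP synthase and 1 of 8 other loci, while none of 4 RNA polymerase loci was called. psbA (40.2, 69.5 and 121 in secretory, against 54.9, 27.8 and 48 in pre-secretory nectaries) and rbcL (21.5, 37.8 and 67.1, against 77.2, 31.1 and 38.7) overlapped between the stages. Of the 21 nuclear photosynthesis genes 9 were lower at this step and none was higher, with a median of -1.44, and deposited values called 18 lower while limma on all 23 libraries called 0, with 0 at an unadjusted p under 0.05, at a median of -1.45.

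**Figure D4:**
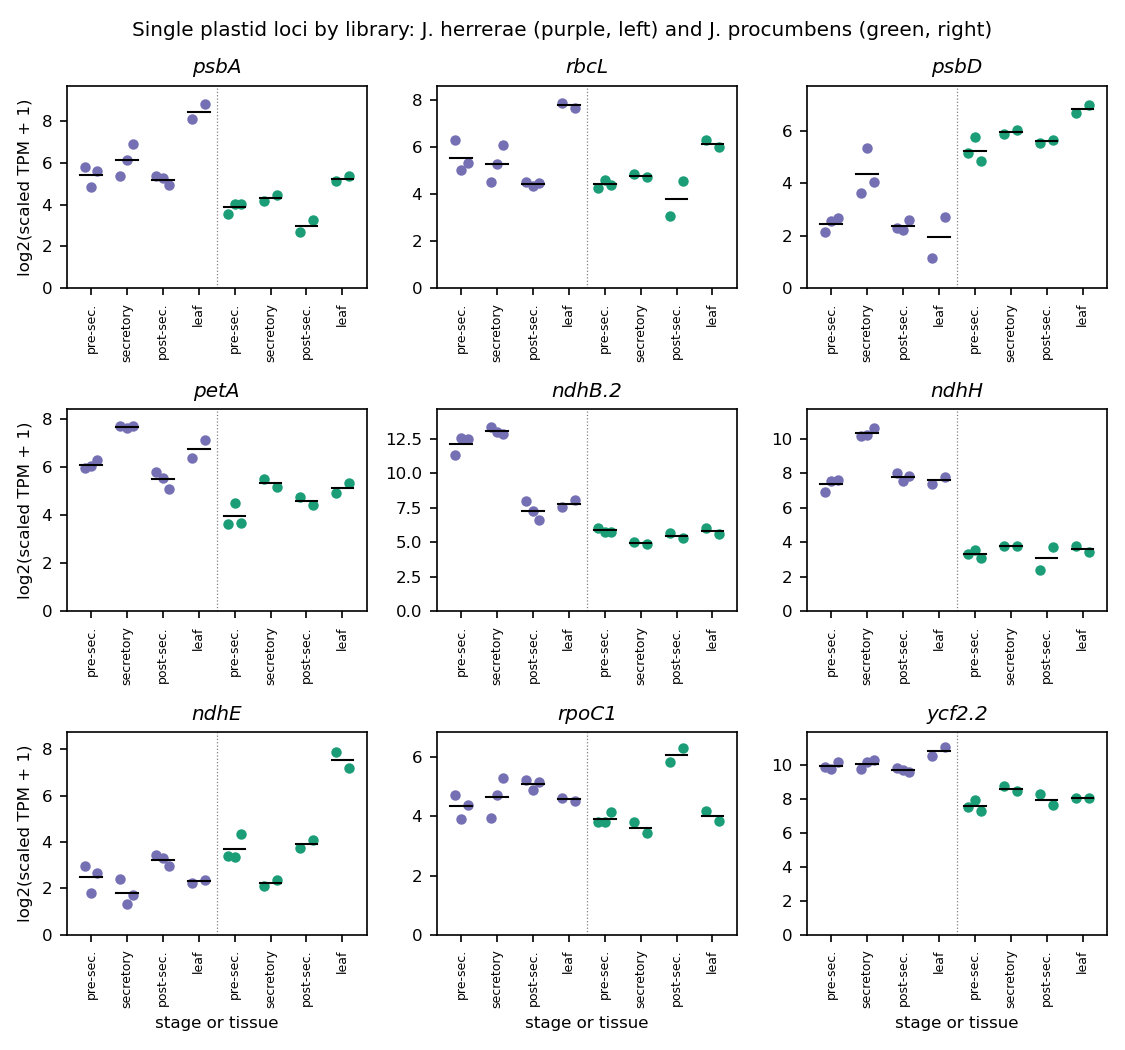
Level of 9 plastid loci in each of 20 libraries, as log2(scaled TPM + 1), by stage and tissue, for J. herrerae (purple, left of each panel) and J. procumbens (green, right); lines are group means and each panel has its own y axis from 0. ndhB.2 and ndhH peak in J. herrerae secretory nectaries, ndhE is highest in J. procumbens leaf (147 and 239 scaled TPM), and rpoC1 is highest in J. procumbens post-secretory nectaries (56.1 and 78.3).

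In post-secretory against secretory nectaries of J. herrerae most plastid loci called were lower, with the lowest changes in ndhB.2, psbH and ndhH. The test called 29 of 67 plastid loci (43.3%), 23 lower and 6 higher, against 58.4% of all loci (32.9% higher, 25.5% lower). The median log2 change was -0.51, against 0.13 for all loci. This split depended on scaling: deposited values, under which the median of all loci was 0.86, gave 23 calls with 14 higher and 9 lower. All 23 libraries gave 14 calls, 2 higher and 12 lower.

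ndhB.2 had 250, 154 and 96.2 in post-secretory nectaries, against 10672, 8185 and 7444 in secretory ones, a log2 change of -5.80 (SE 0.34, adjusted p = 1.56e-08). ndhH had 258, 187 and 231, against 1131, 1186 and 1606, and fell by 2.52. petA had 55.6, 45.9 and 33.5, against 207, 199 and 212, and fell by 2.2. In all 3 loci the groups were far apart, and each stayed lower with deposited values (-4.89, -1.62 and -1.30). rps2 fell by 2.29, psbH by 2.60, psbD by 1.98, ycf15.2 by 1.84 and ndhA by 1.80. These loci were also called in secretory against pre-secretory nectaries, and the secretory libraries enter both comparisons.

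Smaller falls depended on the scaling. psbA (36.3 and 76.8 on average, log2 change -0.93) was at -0.04 with deposited values, and psbC (-0.77), rpl2.2 (-0.85) and accD (-0.79) turned to 0.09, 0.02 and 0.03 there. petB (-0.51) and rps14 (-0.72) turned to 0.34 and 0.07. All of these but rpl2.2 were also lost without at least 1 library, and 17 of the 29 calls held without each library in turn.

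The loci that rose included an envelope protein and an RNA polymerase subunit. cemA had 60.4, 64 and 51.9 in post-secretory nectaries, against 21.5, 18.1 and 26.8 in secretory ones (log2 change 1.38, SE 0.21, adjusted p = 5.79e-05). rpoB had 33.1, 36.9 and 34.3, against 18.7, 18.1 and 22.4, and rose by 0.79 (adjusted p = 0.000576). psbE had 22.4, 29.7 and 21.8, against 7.17, 7.56 and 15.7, and rose by 1.27. None of these groups overlapped. ndhE rose by 1.42, rpl32 by 1.54 and rps7.2 by 0.66, and all 6 rises were also called with deposited values.

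Nuclear photosynthesis genes were higher at this step in both species. Of 21 such genes 18 were higher in J. herrerae post-secretory nectaries with a median of 4.24, and 15 in those of J. procumbens with a median of 2.68, and none was called lower. The counts with all 23 libraries were 6 and 0 by limma, the second with 0 at an unadjusted p under 0.05. Of 19 nuclear genes for plastid transcription 13 were higher in J. herrerae with a median of 1.21 (5 with all 23 libraries), and in J. procumbens 4 were higher and 1 lower. RPOTp, the plastid phage-type polymerase, averaged 26.4 in post-secretory and 9.35 in secretory nectaries of J. herrerae. Of the plastid photosynthesis loci in that species, 1 of 9 photosystem II loci was higher and 4 lower, and rbcL had 21.4, 18.9 and 20.9, against 21.5, 37.8 and 67.1, a change that did not pass. Of 44 mitochondrion-encoded loci 19 were called lower and 1 higher in J. herrerae, against 25.5% lower and 32.9% higher among all loci. Deposited values turned that split to 5 lower and 9 higher. The 4 leaf mesophyll markers summed to 3498 to 7875 in post-secretory and 181 to 593 in secretory nectaries of J. herrerae, where LHCB1.3 and LHCB2.1 were called higher and RBCS1A and RCA were not, RCA having a log2 change of -0.41. The 3 nectary markers summed to 552 to 1247 and 19946 to 22216. In J. procumbens the leaf markers summed to 649 to 996 in post-secretory and 104 to 150 in secretory nectaries and the nectary markers to 659 to 2725 and 27667 to 34727. Their part in the changes was not tested.

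In J. procumbens plastid loci were called in both directions at the step to secretion. The test called 18 of 67 plastid loci (26.9%) in secretory against pre-secretory nectaries, 9 higher and 9 lower, against 35.6% of all loci (17.3% higher, 18.3% lower). Deposited values, at a median of all loci of -0.17, gave 12 calls with 3 higher and 9 lower, and all 23 libraries gave 2, both lower. Without pre-secretory D the count was 7, without secretory A 6 and without secretory B 10, and only petA and petB were called without each library in turn.

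petA was higher in this species too, with 44.1 and 35 in secretory nectaries, against 11.6, 22.1 and 11.9 in pre-secretory ones (log2 change 1.37, SE 0.28, adjusted p = 0.00259). petB, which had 12.3 and 11.4, against 4.1, 6.1 and 5.62, rose by 1.04 (adjusted p = 0.0038). Neither overlapped, and both were called with deposited values. ycf2.2 had 424 and 346, against 181, 239 and 151, and rose by 1.03, accD by 0.94, ccsA by 1.11 and ndhG by 1.08, and none of these 4 passed with deposited values.

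On the lower side ycf1.2 had 45.8 and 43.9 in secretory nectaries, against 108, 97.6 and 174 in pre-secretory ones (log2 change -1.43, SE 0.38, adjusted p = 0.00972). ndhE had 3.27 and 4.07, against 9.58, 9.15 and 19.4, and fell by 1.48, cemA fell by 1.05 and rpoC2 by 0.95, the last with 19.6 and 12.2, against 29.4, 32.8 and 30.6. rps12B fell by 1.48, at levels of at most 3.05. rps4 was listed at 0 in both secretory libraries and petL too, against 1, 2 and 4 and 1, 1 and 1 deposited TPM in the pre-secretory libraries used. None of the 9 loci called lower overlapped between the stages. With 2 and 3 libraries that is easily met, and its share over all loci was not computed.

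In post-secretory against secretory nectaries of J. procumbens 11 of 67 plastid loci (16.4%) were called, 2 higher and 9 lower, against 38.3% of all loci (21.4% higher, 16.9% lower). Deposited values, at a median of all loci of 0.42, gave 8 calls with 4 higher and 4 lower. With all 23 libraries limma called 0, and 3 had an unadjusted p under 0.05. Without secretory A the count was 5 and without post-secretory B it was 7, and ndhE, rpoC1 and ccsA were the 3 called without each library in turn.

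The locus rpoC1 (ATCG00180), an RNA polymerase subunit, had 56.1 and 78.3 in post-secretory nectaries, against 13.1 and 9.76 in secretory ones. Both post-secretory libraries were above every other library in the series that was used, at a log2 change of 2.45 (SE 0.35, adjusted p = 0.000114). Its partners did not follow: rpoB had 34.8 and 39.2, against 39.2 and 36.6, and rpoC2 had 9.15 and 14.3, against 19.6 and 12.2. ndhE was the other rise, with 12.2 and 16.2, against 3.27 and 4.07 (log2 change 1.69). Among the falls, ccsA had 1.22 and 1.86, against 17.2 and 10.6 (log2 change -2.52, adjusted p = 0.000193), and atpB, the ATP synthase beta subunit, had 12.2 and 13.1, against 40 and 71.5 (log2 change -2.0, adjusted p = 0.0051). psbA fell by 1.34, with 5.49 and 8.7, against 17.2 and 21.1.

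Between the species, petA was the 1 locus called higher at secretion in both (1 of 14 and 1 of 9 such calls, 1.49% of plastid loci against 6.49% of all loci), and atpF was higher in J. herrerae and lower in J. procumbens. The J. herrerae rise of atpF was from 0 to 1 deposited TPM. After secretion psbA, petB, rpl2.2, accD and ccsA were called lower in both (5 of 23 and 5 of 9, 7.46% of plastid loci against 11.1% of all loci) and ndhE higher in both (1 of 6 and 1 of 2, against 13.8% of all loci). The test of the difference in the secretory step, J. herrerae minus J. procumbens, called 7 plastid loci, all higher, against 13.3% of all loci, 6.55% higher and 6.75% lower: psbH at 3.10, ycf15.2 at 2.62, ndhH at 2.46, atpF at 2.46, ycf1.2 at 2.13, ndhB.2 at 1.87 and petL at 1.29. Deposited values gave 4 and all 23 libraries 1, and without secretory A or without secretory B of J. procumbens the count was 3. For the post-secretory step it called 13, 5 higher and 8 lower, against 20.9% of all loci, 9.98% higher and 10.9% lower, led by ndhB.2 at -6.32 (SE 0.53, adjusted p = 9.54e-06), rps2 at -2.08 and rpoC1 at -2.0 on the lower side and rpl32 at 2.80 and psbE at 2.00 on the higher side. Deposited values gave 8 calls there, 6 higher and 2 lower, at a median of all loci of 0.42, and all 23 libraries 1. Without J. herrerae post-secretory B or J. procumbens secretory A it was 8, and without J. procumbens post-secretory B it was 7.

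Between the species, the share of plastid loci called was near that of all loci in nectaries (52.2%, 50.7% and 46.3% in order of stage) and above it in leaf (62.7%), and more of the calls were higher in J. herrerae. Differences between species can also come from how transcripts of each were matched to Arabidopsis loci, which is not given in the sources used here, so the 2 cannot be told apart. Of 67 loci, 35 were called in pre-secretory nectaries (22 higher, 13 lower, against 48.4% of all loci called), 34 in secretory nectaries (28 higher, 6 lower, against 48.5%), 31 in post-secretory nectaries (25 higher, 6 lower, against 46.6%) and 42 in leaf (32 higher, 10 lower, against 39.0%). Among all loci, 24.7% were higher and 23.8% lower before secretion and 24.2% and 24.3% during it. After secretion the shares were 23.7% and 22.9%, and in leaf 20.7% and 18.3%. The split depended on scaling in nectaries. Deposited values gave 15 higher and 24 lower before secretion, 17 and 22 during it, 21 and 10 after it, and 27 and 9 in leaf, at medians of all loci of -0.70, -0.84, -0.48 and -0.16. All 23 libraries gave 19, 23, 22 and 30 calls in the same order of tissues, the first with 9 higher and 10 lower. Of the main calls 29, 23, 22 and 29 held without each library in turn.

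**Figure D5:**
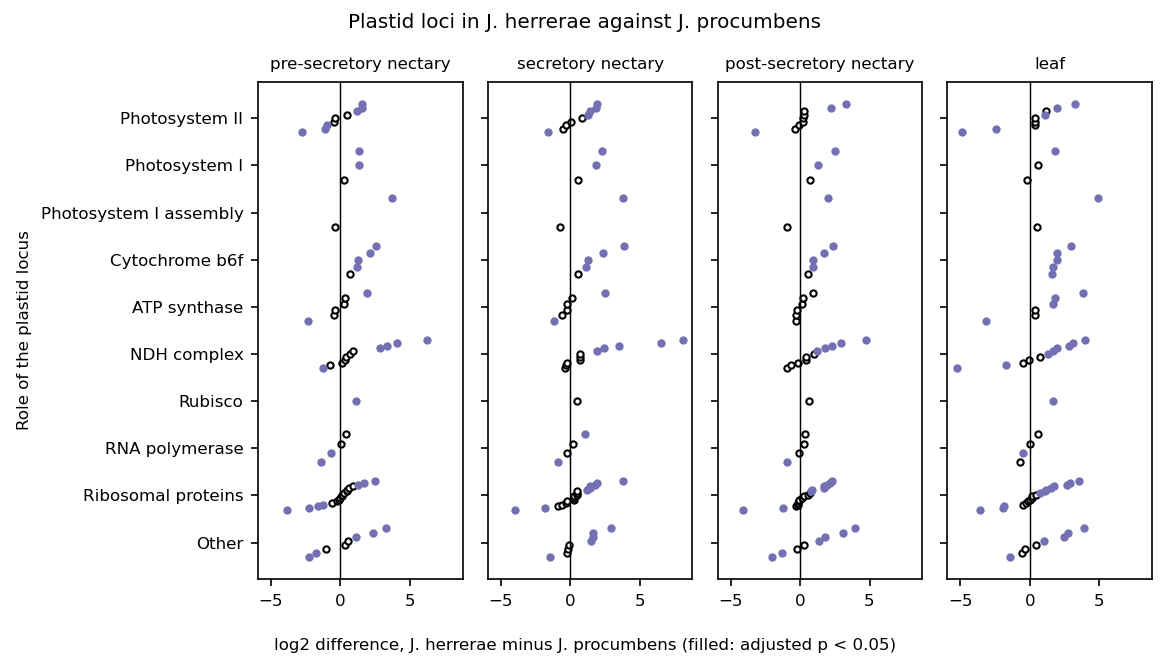
Log2 difference, J. herrerae minus J. procumbens (x axis), of each plastid locus by role, with a panel for each nectary stage and 1 for leaf; filled points passed an adjusted p under 0.05. The widest differences are in the NDH complex, from -5.26 (ndhE in leaf) to 8.12 (ndhB.2 in secretory nectary).

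Called the same way in all 4 tissues were 15 loci higher and 2 lower in J. herrerae, 8 and 2 of them with deposited values and 5 and 1 with all 23 libraries as well. Those 15 and 2 are 22.4% and 2.99% of plastid loci, against 7.55% and 6.56% of all loci. Another 4 loci (psbB, psbH, rpl16 and rpoC1) were higher in some tissue and lower in another, and 12 were called in none. ndhH had 122 to 195, 1131 to 1606, 187 to 258 and 165 to 224 in the 3 nectary stages in order of time and in leaf of J. herrerae, against 7.5 to 10.7, 13 to 13.1, 4.27 to 12.4 and 9.71 to 13.1 in those of J. procumbens, with differences between 3.98 and 6.52. ndhB.2 differed by 6.25, 8.12, 1.80 and 1.97. It was the widest difference of any plastid locus before and during secretion, and in J. procumbens it stayed between 28.5 and 65.7 in the 9 libraries used.

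psbA was higher in J. herrerae by 1.54, 1.82, 2.22 and 3.22 in the 4 tissues, and in leaf it had 274 and 457, against 34.2 and 40 in J. procumbens. petA differed by 0.90 to 2.36 and ycf2.2 by 1.46 to 2.74, but petA after secretion and ycf2.2 during it were not called with deposited values (0.37 and 0.41). matK had 12.9 to 43 in J. herrerae and at most 3.81 in J. procumbens. ycf3, a photosystem I assembly factor, had 5.74 to 37.4 in J. herrerae and was listed at 0 in every J. procumbens library used but post-secretory B, which had 4.88. psaC was listed at 0 in all 9 J. procumbens libraries used and had at most 4.53 in J. herrerae, where leaf B was also at 0.

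psbD was lower in J. herrerae in all 4 tissues. It had 1.24 to 39.3 in J. herrerae and 27.5 to 125 in J. procumbens, and the difference ran from -4.89 in leaf, where J. herrerae had 1.24 and 5.54 and J. procumbens 101 and 125, to -1.61 in secretory nectary. In leaf ndhE (3.71 and 4.16, against 239 and 147) differed by -5.26 (SE 0.42, adjusted p = 6.79e-08), while in secretory and post-secretory nectaries it was not called. clpP1 was lower in J. herrerae nectaries at each stage (-1.74, -1.49 and -2.0) and atpE higher by 3.79 in leaf.

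By role, the cytochrome b6f complex was higher in J. herrerae in 4 of 5 loci at each nectary stage and in 5 of 5 in leaf, with none lower. The NDH complex had 4 higher and 1 lower before secretion, 5 higher during it, 5 higher after it and 6 higher and 2 lower in leaf. Ribosomal protein loci were mixed, with 3 higher and 4 lower before secretion and 8 higher and 3 lower in leaf. RNA polymerase loci had 0 of 4 higher and 2 lower before secretion (rpoB at -0.71 and rpoC2 at -1.4), 1 higher (rpoC1 at 1.03) and 1 lower (rpoB at -0.91) during it, rpoC1 lower after it (-0.96), and rpoA lower in leaf (-0.50). The 2 carpel and ovule markers summed to 84.1 to 117 in J. herrerae nectaries, mostly STK (80.9 to 116), and 5.72 to 23.8 in J. procumbens nectaries. The 3 nectary markers summed to 552 to 22216 and 659 to 34727. Their part in the differences between species was not tested.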

How the data were processed

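Expression was measured by 150 bp paired-end sequencing of TruSeq stranded mRNA libraries, per the labels. The authors deposited TPM values rounded to whole numbers for 13170 Arabidopsis loci in 23 libraries, used here as a score and not as a count. The submitters' processing notes name kallisto 0.46.1. How transcripts were matched to Arabidopsis loci and merged, and against which reference, is not stated in the labels or in the table. Groups came from the sample titles.

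Libraries were rescaled by the median ratio over 9613 loci (factors 0.447 to 1.64). Loci under 1 TPM in all but 1 library were dropped, which left 13075. Values were taken as log2(scaled TPM + 1), so a fold change of a low locus is understated. Limma 3.58.1 (R 4.3.3, trended empirical Bayes) was fitted to 20 libraries as group means, with Benjamini-Hochberg adjustment over all loci in each of 13 comparisons. Single values were compared by exact two-sided permutation tests. On simulated data the fit recovered 61% of 2-fold and 92% of 4-fold changes for nectary against leaf of J. herrerae, with 14 false calls, and 60% and 92% for that of J. procumbens, with 8. For secretory against pre-secretory nectaries it recovered 53% and 92% in J. herrerae and 45% and 87% in J. procumbens, with 10 false calls each. Recovery in loci of low mean level, such as psbH (3.2 scaled TPM), atpF (2.66) and psaC (1.12), was not tested.

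Members and gene lists were chosen with earlier results of these data known. Named loci were those of 18 genes chosen by role, with rps12A and rps12B taken as 1 gene. Added to them, in each comparison, were up to 4 called loci with the highest and 4 with the lowest change. Others named were picked after their values were seen. Left out of the fit were 3 J. procumbens libraries. Alternatives were deposited values, all 23 libraries, a pseudocount of 0.1, no filter, a replicate block and leaving out each library. The values of 1 plastid locus, which is counted in the totals, are not reported here. Figures used matplotlib 3.10.9.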

Additional observations from a re-analysis of the deposited data

Results flagged for a closer look

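With its 4 libraries, the J. procumbens pre-secretory group had a value far from the others in 11 of 25 sets of values examined, each time because of pre-secretory A, which was left out of the comparisons. Chance flags about 1 in 20 groups, and these sets share the library. That library had a plastid share of 0.565% of listed TPM, a photosynthesis-list share of 0.0794% and 58.1% of its plastid signal in ycf2.2. In deposited TPM it had 118 for psbA, 46 for psaB, 96 for petA, 13 for rpoC2, 13 for rps12A, 7 for rps12B, 2064 for ycf2.2 and 145 for ndhH. Its leaf markers summed to 74177 scaled TPM, and their part in these values was not tested.

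Nectary against leaf differed between the species by the test of the difference, J. herrerae minus J. procumbens on the log2 scale, at 4.49 for ndhE, 3.42 for ndhB.2, 2.78 for psbH, 2.5 for rpl16 and 2.35 for psbD. It was -2.30 for ndhK, -2.02 for atpE, -1.91 for rps18, -1.85 for atpH, -1.36 for psbA, -1.35 for rps12B and -1.16 for clpP1. The calls of psbD, atpE, rps18, psbA, rps12B and clpP1 were lost without at least 1 library.

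Secretory against pre-secretory nectaries differed at 3.10 for psbH, 2.62 for ycf15.2, 2.46 for ndhH, 2.46 for atpF and 2.13 for ycf1.2, of which ycf15.2 and ycf1.2 were lost without at least 1 library. For atpF the J. herrerae step was from 0 to 1 deposited TPM. Post-secretory against secretory nectaries differed at -6.32 for ndhB.2, -2.08 for rps2, -2.0 for rpoC1, -1.79 for ndhH and -1.46 for petA, and at 2.80 for rpl32, 2.00 for psbE, 1.51 for cemA, 1.5 for ccsA and 0.83 for rpoB. Among these ndhB.2, rps2, rpoC1 and cemA were called without each library in turn.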

How the results depend on the processing

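Counts of called plastid loci moved most with the 3 left-out libraries. With all 23 libraries they were 27, 6 and 14 in J. herrerae (nectary against leaf, then the step into secretion, then the step after it), 6, 2 and 0 in J. procumbens, 19 between species in pre-secretory nectaries, and 6, 1 and 1 for the species differences in those 3 steps. With all 23 and no rescaling they were 26, 1 and 11, then 3, 0 and 0, then 21, 20 and 23 between species before secretion, after it and in leaf, and 3, 0 and 2. Beside the counts of 0, limma gave 3 loci at an unadjusted p under 0.05 for J. procumbens after secretion with all 23, and without rescaling 7 and 2 for its 2 steps and 8 for the species difference in the secretory step. Deposited values gave 21 for J. procumbens nectary against leaf, and 4 and 8 for the species differences in the 2 steps. In J. herrerae after secretion they turned rpl2.2 to 0.02, accD to 0.03 and psbC to 0.09, with 20 or 23 libraries. Without rescaling the 20 libraries had a median change of all loci between -0.84 and 0.86 across the 13 comparisons. The cause of the other changes was not tested. Excluding ndhB.2 turned the plastid share difference of J. herrerae to -0.166 points, by construction. With all 23 libraries, counted under their labels, the log2 ratio of NEP to photosynthesis loci differed by 1.07 in J. procumbens, less than the 1.47 of the main comparison. Nectary (0.98 at the lowest) and leaf (1.19 at the highest) then overlapped. The exact permutation p was 0.0364, where the smallest possible was 0.00909 instead of 0.0556.

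Leaving out 1 library gave 30 to 46, 9 to 15 and 21 to 33 calls in J. herrerae, 17 to 34, 6 to 18 and 5 to 15 in J. procumbens, 33 to 35, 24 to 37, 27 to 31 and 32 to 36 between species in the 3 stages and leaf, and 11 to 23, 3 to 10 and 7 to 13 for the species differences. A lone library left in a group is then assumed to vary like the other groups. The ratio differed by 0.796 to 0.986 in J. herrerae, and without either leaf library its exact permutation test could not reach 0.05. It was 1.37 to 1.52 in J. procumbens. The share differed by 0.264 to 0.417 and by -0.0328 to -0.0161 points. Same-letter libraries deviated with correlations of -0.127 to 0.133 in J. herrerae and -0.355 to 0.141 in J. procumbens, so the letters are taken to share only a name. With the replicate block the counts were 7 for J. procumbens secretory against pre-secretory and 3 for the species difference in that step, and within 1.5 times the main count elsewhere. TPM keeps no depth, so differences of low loci near 1 TPM are limited to an unknown degree.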
